A study of Homo sapiens with 12 samples.

Results

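GADD45a given alone was set against an empty vector in HEK293T cells, a human line of embryonic kidney origin that carries the SV40 large T antigen. The comparison rests on 4 of the 12 bead arrays, taken by their titles, 2 labelled GADD45a and 2 labelled Control. All cells were transiently transfected with plasmids and harvested after 48 h, and the replicates of a group were separate transfections. The other 8 arrays, 2 per group, came from cells given human ING1b, ING1b without its PHD domain (ING1bΔPHD), GADD45a with ING1b, or GADD45a with ING1bΔPHD. Nothing in the sources used here names the promoter driving the inserts or the share of cells that took up plasmid. RNA was taken from whole cultures, so fewer cells of a kind and less RNA per cell cannot be told apart.

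GADD45A is a small stress protein, itself a target of p53, that binds PCNA, p21 and the kinase MAP3K4, which feeds the p38 and JNK kinases. JNK phosphorylates JUN, a subunit of the transcription factor AP-1. GADD45 proteins are also known for parts in nucleotide excision repair, in arrest before mitosis and in active removal of DNA methylation.

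Levels below are log2 intensities after background correction and quantile normalization, differences are GADD45a minus control, and each standard error (SE) belongs to one limma fit of all 12 arrays, 2 to a group. "Rose" and "fell" are kept for genes with a limma adjusted p under 0.05 among the 10645 tested. The block means the same fit with the replicate number as a term. Where a probe was not detected in 1 group, "at least" gives the fold against the detection floor of those arrays, and the fitted log2 difference is then no measure of size. "Not detected" refers to the probe used for a gene, the brightest of its probes. Array number limits the precision of every value.

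The 4 arrays detected 15665 to 16301 probes, with median intensities of 130 to 138 units. Of 13 genes known at high level in HEK293 cells, each array detected 9 to 11, and PAX2 and PAX8 were detected on none of the 4. Of 10 blood cell markers with a probe 1 or 2 were detected per array, and PTPRC, CD3D and HBB were not. The summed level of the HEK list was 15.19 and 15.34 as the lowest and highest control array and 15.16 and 15.25 in GADD45a. Control replicate 2 stood apart from the other arrays in genes of amino acid synthesis and stress. Over 28 such genes, mostly targets of the transcription factor ATF4, its median level lay 0.72 above the mean of the 12 arrays on the log2 scale. The same median was between -0.14 and 0.01 on each of the other 11 arrays.

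The targeted gene was read by 2 probes, and neither was higher in the arrays labelled GADD45a. Probe ILMN_1694075 read 744 and 1020 intensity units in the control replicates and 142 and 128 in those labelled GADD45a. The latter pair was not detected, so the probe read at least 11.8-fold lower in them, with a limma adjusted p of 1.97e-04 when probes were tested singly. It was detected on 6 of the 12 arrays, and these were the 6 that received no GADD45a plasmid. Probe ILMN_2052208 gave log2 levels of 10.26 and 10.39 in control against 9.78 and 9.81. The groups did not overlap, yet the difference of -0.53 (SE 0.167) did not pass, with an adjusted p of 0.175, or 0.0844 with the block. Where these probes lie relative to the plasmid's insert was not tested. The arrays are therefore called by their labels, and every direction below runs from the label Control to the label GADD45a. Of the paralogs, GADD45B differed by -0.27 (SE 0.167, limma adjusted p = 0.478), and GADD45G was detected on 1 control array and on neither labelled GADD45a.

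**Figure D1:**
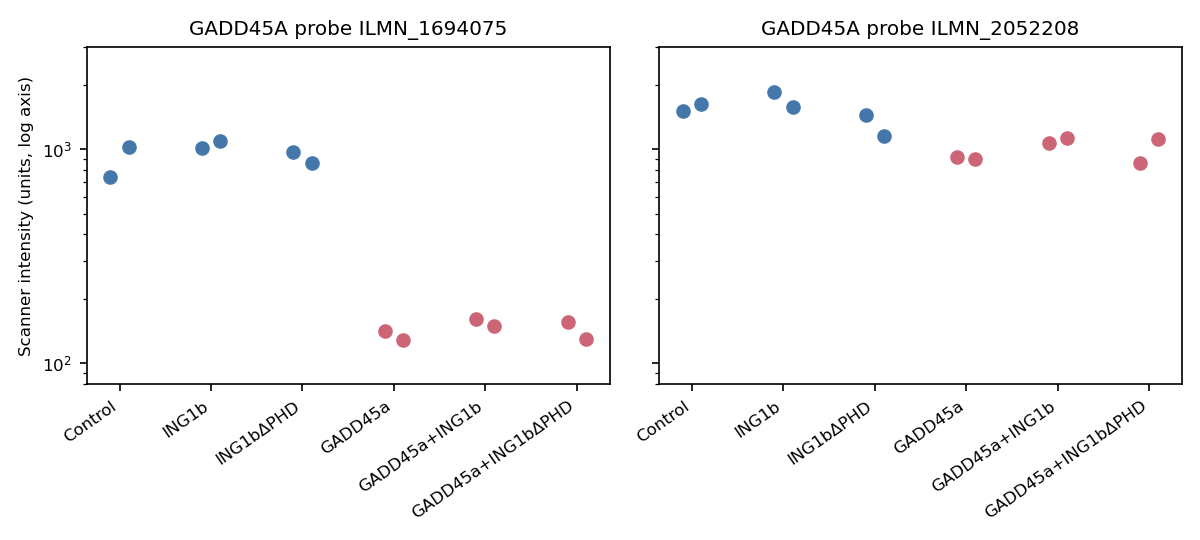
Scanner intensity of the 2 GADD45A probes on all 12 arrays, on a log axis. Each point is 1 array, in red where the group received the GADD45a plasmid. The left probe separates the groups, with 142 and 128 units in GADD45a against 744 and 1020 in control, and the right probe is lower in GADD45a by a smaller step.

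In all 70 of the genes tested passed (0.658%), and of these 20 rose (0.188%) and 50 fell (0.470%). In none of the 70 did the arrays of the 2 groups overlap, as in 43.6% of all genes tested. Each therefore kept its direction within replicate 1 and within replicate 2, on the same arrays that chose it. The median of the fitted differences was 2.30-fold among those that rose and 2.28-fold among those that fell. Both medians include genes whose probe was not detected in 1 group, so they are no measure of typical size. At the unadjusted level, p was under 0.05 for 1585 genes, or 14.9%. With the block, 391 genes passed (3.67%), 146 higher (1.37%) and 245 lower (2.30%), and these held all 70. Without Control replicate 2, 6 genes passed, namely GGTLC1, INF2, SAC3D1, MED29, NDUFA13 and PSAT1. Without Control replicate 1 the count was 147, without GADD45a replicate 1 it was 5, and without GADD45a replicate 2 it was 10. The lone array of a group was then taken to vary like the other groups. Under median scaling, which moved the median of all genes from -0.01 to -0.23, 26 genes were higher and 408 lower.

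**Figure D2:**
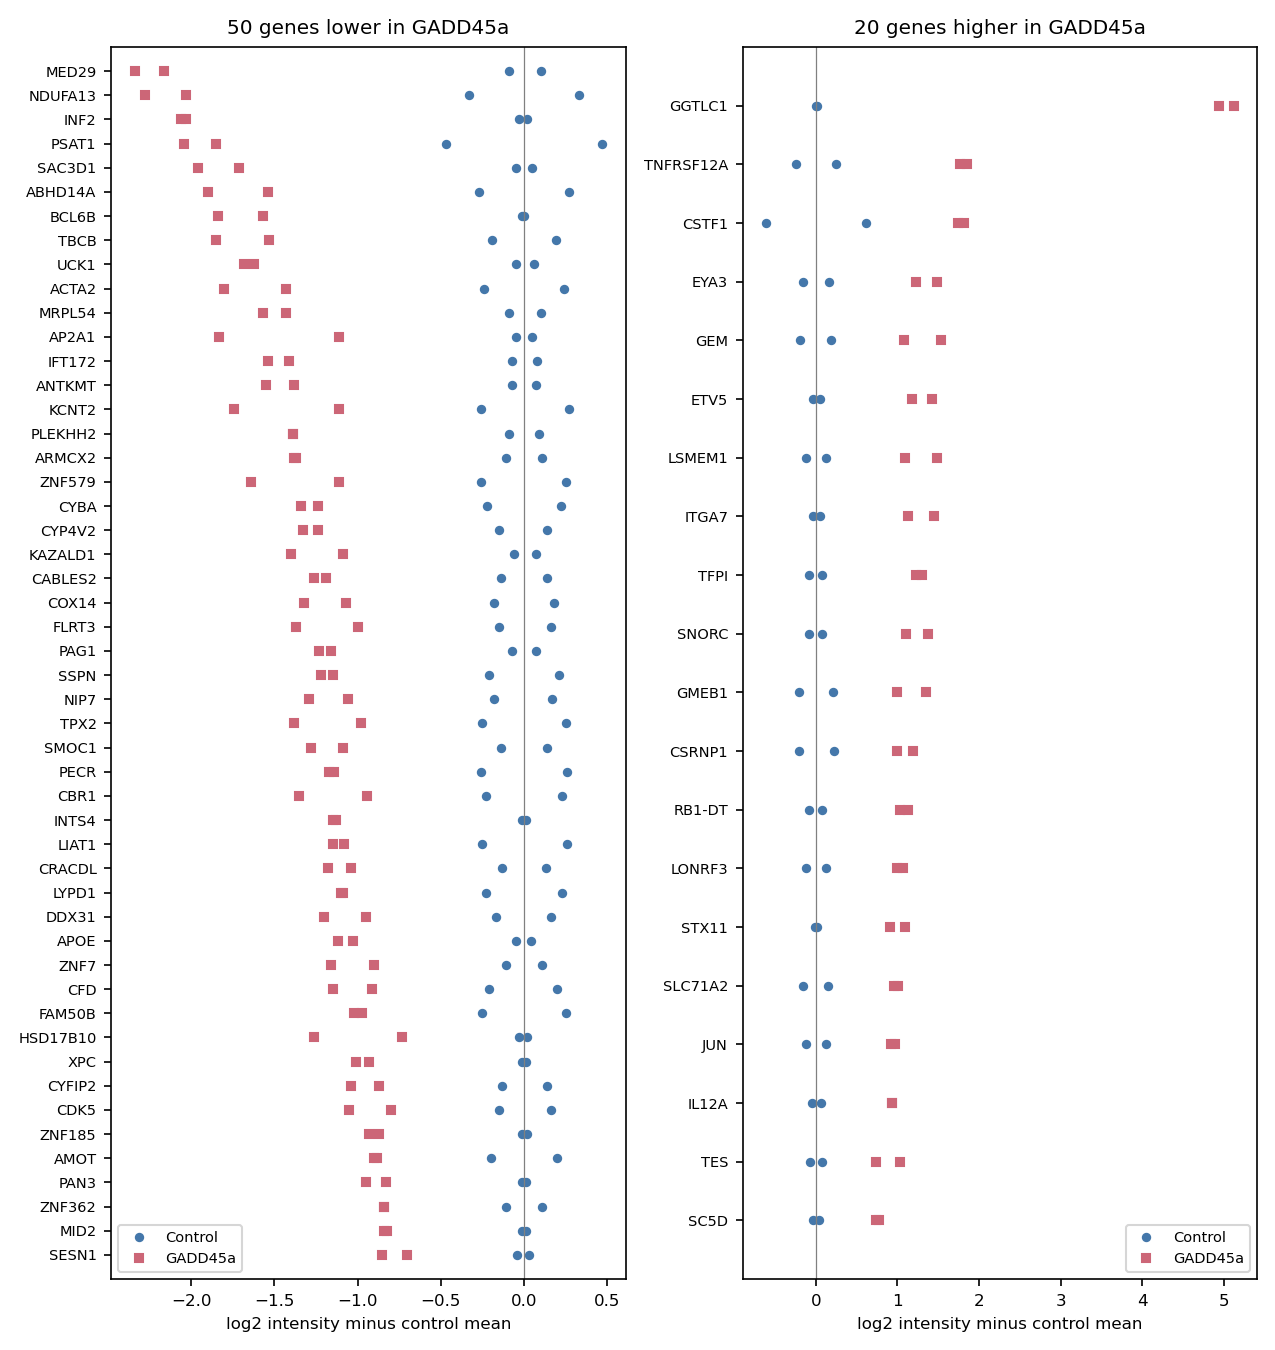
The 70 genes that passed, each with its 2 control arrays (circles) and 2 GADD45a arrays (squares) as log2 intensity minus the control mean. The 50 genes on the left run from MED29 at -2.25 to SESN1 at -0.77 and the 20 on the right from SC5D at 0.76 to GGTLC1 at 5.03, and in no gene do the groups overlap.

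Among genes of signalling to the nucleus, JUN, ETV5 and EYA3 rose. JUN, the AP-1 subunit, read 11.57 and 11.81 in control and 12.66 and 12.61 in GADD45a. Its GADD45a arrays lay close together above both controls. The rise was 1.93-fold (log2 0.95, SE 0.175, limma adjusted p = 0.0446), and 1.06 on the log2 scale without Control replicate 2 (adjusted p = 0.148). ETV5, an ETS factor induced by ERK signalling, was not detected in control at 4.76 and 4.67 and was detected in GADD45a at 5.89 and 6.13, at least 1.17-fold higher (adjusted p = 0.00979). EYA3, a transcriptional coactivator and tyrosine phosphatase that acts at DNA damage sites, stood at 7.95 and 7.63 against 9.02 and 9.27. It rose 2.56-fold (SE 0.217, limma adjusted p = 0.0249). GMEB1, which binds glucocorticoid modulatory elements, rose 2.26-fold (limma adjusted p = 0.0197), and a second probe for it rose as well, by 1.13 on the log2 scale (adjusted p = 0.0403 among probes tested singly). CSRNP1, a nuclear protein first described as induced by AXIN1, rose 2.13-fold from 8.38 and 7.95 to 9.35 and 9.15 (adjusted p = 0.0424). GEM, a small GTPase of the RGK family, was detected on 1 control array and rose at least 2.45-fold (limma adjusted p = 0.0382).

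Of 22 measured AP-1 and immediate-early factors JUN alone passed, and 14 lay above 0, against 5111 of the 10645 genes. The list's median was 0.08 against -0.01 over all genes, or -0.14 under median scaling, where all genes lay at -0.23. FOS, the best known partner of JUN, was the lowest of the 22, at 5.91 and 5.59 in control and 5.04 and 4.72 in GADD45a. It was detected on 1 control array and on no GADD45a array, and it did not pass (limma adjusted p = 0.192). MAFG, a small MAF protein, passed only with the block at 0.77 (adjusted p = 0.0389). Of 15 measured genes of ERK output and feedback ETV5 alone passed, and the median was 0.27, or 0.01 under median scaling against -0.23 over all genes. SPRED2, an inhibitor of the RAS to ERK route, and DUSP8, a phosphatase of JNK and p38, passed only with the block at 1.06 (adjusted p = 0.0154) and 1.08 (adjusted p = 0.0234). Without Control replicate 2 DUSP8 was at 0.77 (adjusted p = 0.682). In 11 of the 15 Control replicate 2 was the lowest of the 4 arrays, as in 30.5% of all genes, and the list's median was 0.11 in replicate 1, 0.43 in replicate 2 and 0.08 without Control replicate 2. Among 20 measured GADD45 and stress-kinase genes none passed, with or without the block. GADD45A counts in that list by its brighter probe ILMN_2052208, and not by ILMN_1694075, which read at least 11.8-fold lower in GADD45a. The largest positive difference in the list was that of MAPK8IP3, a JNK scaffold, at 0.56 (SE 0.260, limma adjusted p = 0.349). Of 19 measured receptor tyrosine kinase and RAS pathway genes none passed, and with the block RRAS alone did, at -0.70 (adjusted p = 0.0284).

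RefSeq promoter sequences, 250 bases before to 50 after a transcript start on GRCh38.p14, were at hand for 16 of the 20 genes that rose and 46 of the 50 that fell. They are shown because JUN is itself known as an AP-1 target, through the variant element TGACATCA in its promoter. That variant was searched for after the JUN sequence had been read, on both strands, and the JUN promoter therefore counts for nothing. Besides JUN, the variant was in GGTLC1, SNORC and LSMEM1 among the 16 and in 1 of the 46 (FLRT3). Over all genes tested it was in 122 of 8662 promoters (1.41%), that of JUN among them. The standard AP-1 motif TGANTCA was in 0 of the 16 and in 2 of the 46 (LYPD1 and ZNF185), against 4.05% of all. TGACGTCA, the cyclic AMP response element, was in none of either set, against 3.58%. The ATF4 element TGATGNAA was in KCNT2 alone, which fell, against 1.65%. The matches in the sequences below do not overlap. Capitals mark the variant, written as TGATGTCA where it reads on the other strand, and in LYPD1 the AP-1 motif. A match is a run of letters and not a shown binding site.
JUN, chr1:58783998-58784297, minus strand: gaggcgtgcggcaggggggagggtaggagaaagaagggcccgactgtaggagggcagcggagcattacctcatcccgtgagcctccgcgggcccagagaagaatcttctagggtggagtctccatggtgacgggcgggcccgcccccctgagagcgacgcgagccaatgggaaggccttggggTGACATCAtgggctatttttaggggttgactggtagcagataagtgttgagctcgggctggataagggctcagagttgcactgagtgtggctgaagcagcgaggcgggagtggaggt
GGTLC1, chr20:23988730-23989029, minus strand: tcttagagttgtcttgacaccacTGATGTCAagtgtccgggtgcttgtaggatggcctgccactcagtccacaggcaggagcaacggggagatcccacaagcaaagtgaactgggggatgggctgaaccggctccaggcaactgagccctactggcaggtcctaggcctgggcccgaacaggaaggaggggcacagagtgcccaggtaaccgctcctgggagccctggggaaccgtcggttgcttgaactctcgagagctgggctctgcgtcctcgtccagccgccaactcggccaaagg
SNORC, chr2:232875344-232875643, plus strand: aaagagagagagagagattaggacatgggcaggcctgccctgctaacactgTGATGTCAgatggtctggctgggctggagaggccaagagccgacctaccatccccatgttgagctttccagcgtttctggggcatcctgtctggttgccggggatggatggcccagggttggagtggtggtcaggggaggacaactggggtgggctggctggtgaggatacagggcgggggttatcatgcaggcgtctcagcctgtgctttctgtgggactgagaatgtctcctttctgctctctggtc
LSMEM1, chr7:112480603-112480902, plus strand: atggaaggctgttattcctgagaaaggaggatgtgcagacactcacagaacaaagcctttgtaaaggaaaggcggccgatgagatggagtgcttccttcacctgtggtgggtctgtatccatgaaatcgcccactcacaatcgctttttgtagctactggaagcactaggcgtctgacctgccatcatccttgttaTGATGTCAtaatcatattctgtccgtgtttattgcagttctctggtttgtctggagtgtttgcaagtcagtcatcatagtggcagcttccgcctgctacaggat
LYPD1, chr2:132671477-132671776, minus strand: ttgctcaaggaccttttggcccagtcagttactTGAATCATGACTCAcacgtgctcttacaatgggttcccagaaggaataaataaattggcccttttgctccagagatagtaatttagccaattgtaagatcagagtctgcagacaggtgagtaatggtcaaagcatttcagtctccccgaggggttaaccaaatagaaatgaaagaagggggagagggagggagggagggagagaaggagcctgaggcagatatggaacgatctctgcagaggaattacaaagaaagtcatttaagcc

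In the JUN promoter the match begins at base 184 of the window, and in LYPD1 the matches begin at bases 34 and 41 and stand side by side. The SNORC and LSMEM1 windows surround a transcript start inside the gene's annotated span. SNORC, a proteoglycan-like membrane protein of cartilage, was detected only in GADD45a and rose at least 1.96-fold (limma adjusted p = 0.0138). LSMEM1, a leucine-rich single-pass membrane protein, rose at least 1.47-fold (adjusted p = 0.0446).

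TNFRSF12A, the receptor of the cytokine TWEAK, read 7.27 and 6.78 in control and 8.87 and 8.79 in GADD45a. Both GADD45a arrays stood well above both controls, and the rise was 3.51-fold (log2 1.81, SE 0.206, limma adjusted p = 0.00574), or 1.56 on the log2 scale without Control replicate 2 (adjusted p = 0.0605). TFPI, the inhibitor of the tissue factor pathway of coagulation, went from 8.29 and 8.14 to 9.52 and 9.45. It rose 2.41-fold (SE 0.147, limma adjusted p = 0.00582), and its second probe rose by 1.05 on the log2 scale. IL12A, the p35 subunit of interleukin 12, rose 1.90-fold (limma adjusted p = 0.0303), and ITGA7, a laminin-binding integrin, at least 1.30-fold (adjusted p = 0.00774). TNFRSF12A was the sole one of 21 measured TNF receptor and NF-kB genes to pass, with a list median of 0.23, or -0.02 under median scaling against -0.23 over all genes. Among 10 measured coagulation genes TFPI alone passed, and among 28 measured integrin and matrix genes of a list without ITGA7 none did. COL5A1, a fibrillar collagen chain, passed there only with the block at -0.53 (adjusted p = 0.0350).

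The other genes that rose had varied roles. GGTLC1, a light-chain-only member of the gamma-glutamyltransferase family, was not detected in control, at 4.66 and 4.67, and read 9.60 and 9.78 in GADD45a. The rise was at least 15.0-fold (adjusted p = 4.96e-04), but a second probe of the gene, detected on both control arrays, differed by 0.02 (adjusted p = 0.984), and the family's near-identical copies may share its probes. CSTF1, a cleavage stimulation factor subunit, was detected on 1 of the 2 control arrays and rose from 6.71 and 5.49 to 7.84 and 7.91 (limma adjusted p = 0.0446). Its difference was 1.13 in replicate 1 and 2.43 in replicate 2, and 1.16 without Control replicate 2 (adjusted p = 0.151). LONRF3, a RING finger protein, rose 2.04-fold (limma adjusted p = 0.0138) and SLC71A2, a membrane transporter formerly MFSD14B, 1.98-fold (adjusted p = 0.0249). The other SLC71A2 probes differed by 0.91, 0.87 and 0.05. When probes were tested singly, only the one at 0.87 passed (limma adjusted p = 0.0457). SC5D, a sterol desaturase late in cholesterol synthesis, rose 1.69-fold from 9.64 and 9.72 to 10.42 and 10.45 (limma adjusted p = 0.0401). It was the sole one of 21 measured cholesterol genes to pass, and their median was 0.01. STX11, a SNARE protein, TES, a LIM-domain protein of focal adhesions, and RB1-DT, a divergent transcript of the RB1 locus, rose at least 1.16-fold, 1.60-fold and 1.40-fold.

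In 10 of the 20 genes that rose the probe missed detection on at least 1 control array, and in 12 of the 50 that fell on at least 1 GADD45a array. The probes used for ITGA7 and STX11 were detected on the 2 GADD45a arrays alone. Those for ARMCX2, CRACDL, KCNT2 and SSPN were detected on the 2 control arrays alone. Each passed the detection filter only through the group where it read higher, so its direction is not independent of that filter. Of the 70 genes 17 had other detected probes, 22 in all. Of these, 15 differed in the same direction and 5 passed the same way, and for 12 of the 17 genes none of them passed. Among those 12 genes, the other detected probes of PAG1, LYPD1 and GEM differed by -0.66, -0.75 and 0.96.

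Genes of mitochondria were among those that fell. NDUFA13, a subunit of respiratory complex I also known as GRIM-19, read 10.44 and 11.10 in control and 8.74 and 8.49 in GADD45a. The control replicates differed by more than the GADD45a replicates, and all 4 values kept the groups apart. It fell 4.44-fold (SE 0.215, limma adjusted p = 0.00313). MRPL54, a mitochondrial ribosomal protein, fell 2.84-fold from 10.99 and 10.80 to 9.46 and 9.32 (limma adjusted p = 0.0120). ANTKMT, which methylates the ADP/ATP carrier, fell 2.75-fold (adjusted p = 0.0158) and COX14, an assembly factor of cytochrome oxidase, 2.29-fold (adjusted p = 0.0288). HSD17B10, a dehydrogenase that is also part of mitochondrial RNase P, fell 1.99-fold, and its other probe fell by 1.31 on the log2 scale among probes tested singly.

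Most of the genes they work with did not pass. Among 37 measured complex I genes NDUFA13 alone passed, 26 lay below 0 and the median was -0.11. NDUFV1, a catalytic subunit, and NDUFAF3, an assembly factor, passed only with the block at -0.66 (adjusted p = 0.0267) and -0.62 (adjusted p = 0.0274). Of 42 measured genes of complexes II to V none passed in either fit, with a median of 0.00. Of 42 mitochondrial ribosome and import genes MRPL54 alone passed, with a median of -0.02. None of 28 citrate cycle and pentose phosphate genes or of 31 glycolysis and hypoxia genes passed in either fit, with medians of -0.09 and 0.03.

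MED29, a subunit of the Mediator complex that links activators to RNA polymerase II, showed the largest fitted fall. It read 9.03 and 8.84 in control against 6.59 and 6.77 in GADD45a, a gap many times the spread within either group. It fell 4.77-fold (SE 0.202, limma adjusted p = 0.00143). Among 27 measured Mediator subunits no other fell, the median was -0.02, and CCNC passed only with the block, at 0.63 (adjusted p = 0.0416), and was at 0.26 without Control replicate 2 (adjusted p = 0.831). INTS4, a subunit of the Integrator complex, fell 2.20-fold (limma adjusted p = 0.00979), while its other detected probes differed by 0.51 and 0.29 and did not pass. NIP7, a ribosome assembly factor, fell 2.26-fold from 10.57 and 10.22 to 9.34 and 9.11 (limma adjusted p = 0.0361). It was the sole one of 37 measured ribosome assembly genes to pass, and 27 of the 37 lay above 0 with a median of 0.16, or -0.11 under median scaling against -0.23 over all genes. PAN3, which with PAN2 shortens poly(A) tails, fell 1.85-fold (adjusted p = 0.0168), and DDX31, a nucleolar helicase, 2.10-fold (adjusted p = 0.0310), while the other detected DDX31 probe differed by 0.53 and did not pass (adjusted p = 0.262). Of zinc finger genes BCL6B, a repressor close to BCL6, fell at least 3.15-fold (limma adjusted p = 0.0249), ZNF579 2.59-fold, ZNF7 2.05-fold and ZNF362 1.79-fold.

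Genes of the cytoskeleton and of cell division fell as well. INF2, a formin that both nucleates and severs actin, read 10.18 and 10.23 in control and 8.15 and 8.18 in GADD45a. It fell 4.11-fold (SE 0.152, limma adjusted p = 4.96e-04), but its other probes differed by 0.09 and 0.15. SAC3D1, a protein with a role in centrosome duplication, fell 3.57-fold from 10.99 and 10.89 to 8.98 and 9.23 (limma adjusted p = 6.61e-04). TBCB, a cofactor in tubulin folding, fell 3.23-fold (adjusted p = 0.00557), and ACTA2, the actin of smooth muscle and a target of SRF, 3.05-fold from 9.99 and 10.47 to 8.43 and 8.80 (limma adjusted p = 0.00856). IFT172, which carries cargo along cilia, was not detected in GADD45a and fell at least 1.87-fold (adjusted p = 0.00382). TPX2, which activates Aurora A on the mitotic spindle, read 10.20 and 9.70 in control and 8.97 and 8.57 in GADD45a. It fell 2.27-fold (SE 0.196, limma adjusted p = 0.0290). ZNF185, a LIM protein bound to actin, CYFIP2, of the WAVE complex, AMOT, a scaffold of the Hippo pathway, and MID2, which binds microtubules, fell 1.88-fold, 1.95-fold, 1.85-fold and 1.77-fold. A second CYFIP2 probe fell by 1.41 on the log2 scale, and the other MID2 probes differed by 0.24 and -0.16.

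Of 51 measured G2/M and spindle genes TPX2 alone passed, 34 lay above 0, and the median was 0.17 in replicate 1 and 0.16 in replicate 2, or -0.06 under median scaling against -0.23 over all genes. CDC25A and CDC25C, phosphatases that activate cyclin-dependent kinases, passed only with the block at 0.64 (adjusted p = 0.0452) and 0.54 (adjusted p = 0.0417). Of 49 G1/S and replication genes none passed, and POLD1, a DNA polymerase subunit, and ORC5, of the origin recognition complex, passed only with the block at -0.88 (adjusted p = 0.0258) and -0.67 (adjusted p = 0.0274). Of 34 actin and SRF genes INF2 and ACTA2 passed, with a median of 0.04, and the SRF and YAP target CCN1 passed only with the block at 1.05 (adjusted p = 0.0269). TGFB1I1, a focal adhesion adaptor, passed with the block at -0.67 (adjusted p = 0.0498), though its groups overlapped and it was at -0.17 without Control replicate 2 (adjusted p = 0.946). Of 38 centrosome and cilium genes IFT172 alone passed, with NIN at -0.70 (adjusted p = 0.0453) and IFT27 at -0.61 (adjusted p = 0.0416) with the block. TBCB alone passed among 18 chaperonin and prefoldin genes, with a median of 0.03. No tubulin or motor gene of 31 passed in either fit, with a median of 0.13.

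CDK5, a kinase best known from neurons, and CABLES2, one of a family of proteins that bind it, both fell. CDK5 read 9.60 and 9.29 in control and 8.39 and 8.64 in GADD45a, and fell 1.91-fold (limma adjusted p = 0.0385). CABLES2 was detected on 1 of the GADD45a arrays and fell at least 2.27-fold (adjusted p = 0.0249). Of 14 measured neuronal and secretory granule genes none passed in either fit, and of 10 TCEAL and BEX genes none did.

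Of the p53 targets 24 were measured, and XPC and SESN1 fell. XPC, which recognises DNA damage for nucleotide excision repair, read 10.27 and 10.29 in control and 9.35 and 9.27 in GADD45a. The replicates differed by far less than the groups, and XPC fell 1.96-fold (SE 0.161, limma adjusted p = 0.0290). SESN1, a sestrin that restrains mTORC1, fell 1.71-fold from 8.96 and 9.03 to 8.15 and 8.30 (limma adjusted p = 0.0446). Of the 24 genes 18 lay below 0, and the list's median of -0.21 was -0.20 in replicate 1, -0.17 in replicate 2 and -0.46 under median scaling, against -0.01, -0.02, -0.02 and -0.23 over all genes. SPATA18, of mitochondrial quality control, and CCNG1, a cyclin, passed only with the block (adjusted p = 0.0292 and 0.0375). SPATA18 read 7.49 and 7.63 in control and 6.75 and 6.38 in GADD45a, and CCNG1 differed by -0.72. Control replicate 2 was the highest of the 4 arrays in 10 of the 24, against 31.0% of all genes.

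Of 27 nucleotide excision repair genes XPC alone passed, with XAB2, which binds XPA, at -0.77 (adjusted p = 0.0437) with the block and a median of -0.04. None of 25 base excision and mismatch repair genes passed in either fit, with a median of 0.04. Of 29 double-strand break genes none passed, and MRE11, a nuclease, passed only with the block at 0.68 (adjusted p = 0.0267). Of 27 apoptosis genes none passed, and with the block BID, a BH3 protein, did at -0.83 (adjusted p = 0.0425) and HTRA2, a mitochondrial protease, at 0.81 (adjusted p = 0.0443).

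The lists of DNA methylation and chromatin genes held no gene that passed without the block. Of 16 measured DNA methylation and demethylation genes UHRF2, a reader of hydroxymethylated DNA, passed only with the block at 0.78 (adjusted p = 0.0376). Of 32 Polycomb and remodelling genes EZH2, the H3K27 methyltransferase, passed only with the block, from 9.24 and 9.08 to 9.86 and 9.80 (log2 0.67, adjusted p = 0.0274). Of 29 genes of histone acetylation and H3K4 methylation none passed in either fit, with a median of -0.04. Of 20 histone genes H2AC18 at 0.64 (adjusted p = 0.0269) and H2BC5 at -0.69 (adjusted p = 0.0307) passed only with the block. Of 32 germline and cancer-testis genes, which DNA methylation silences in most tissues, 10 were measured and none passed, with SPANXB1 lower only with the block (adjusted p = 0.0214). It was not detected in GADD45a.

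Metabolic enzymes that fell served separate pathways. PSAT1, the aminotransferase of serine synthesis, read 11.77 and 12.71 in control and 10.20 and 10.39 in GADD45a. It fell 3.86-fold (SE 0.247, limma adjusted p = 0.00944), and the log2 difference was -1.57 in replicate 1 and -2.32 in replicate 2. Without Control replicate 2 it fell by 1.48 (adjusted p = 0.0142). ABHD14A, a predicted hydrolase, fell 3.29-fold (limma adjusted p = 0.0251). UCK1, a uridine-cytidine kinase, was not detected in GADD45a and fell at least 1.68-fold (adjusted p = 0.00478). PECR, a peroxisomal enoyl-CoA reductase, fell 2.23-fold, CYP4V2, a fatty acid hydroxylase, 2.44-fold and CBR1, a carbonyl reductase, 2.21-fold. None of 28 nucleotide synthesis genes passed in either fit. Of 30 fatty acid and phospholipid genes none passed, and ACADVL, of beta-oxidation, at 0.77 (adjusted p = 0.0274) and ACACB, which makes malonyl-CoA, at -0.86 (adjusted p = 0.0395) passed only with the block. GGTLC1 alone passed among 34 glutathione and redox genes, with TXN2, mitochondrial thioredoxin, at -0.82 (adjusted p = 0.0484) with the block and -0.52 without Control replicate 2, and of 18 iron and heme genes CPOX passed only with the block at -0.61 (adjusted p = 0.0425).

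The list with the lowest median was that of serine, one-carbon and amino acid synthesis with ATF4 targets. Of 28 measured members 27 lay below 0, with a median of -0.29, but PSAT1 alone passed. The median was -0.02 within replicate 1 and -0.70 within replicate 2, and Control replicate 2 was the highest of the 4 arrays in 25 of the 28. TRIB3, a pseudokinase induced by ATF4, read 9.38 and 11.34 in control and 9.15 and 9.27 in GADD45a. DDIT3, the stress factor CHOP, likewise stood highest in Control replicate 2. Without Control replicate 2 the median was 0.00, and in the ING1b and ING1bΔPHD backgrounds it was -0.02 and 0.07. What set that array apart was not tested.

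Heat shock genes showed the reverse order. Of 30 measured members 24 lay above 0 with a median of 0.19, or -0.01 under median scaling against -0.23 over all genes, and none passed in either fit. HSPA1B, an inducible HSP70, read 13.53 and 11.66 in control and 14.63 and 14.33 in GADD45a (log2 1.88, SE 0.448, limma adjusted p = 0.0949, or 0.0509 with the block). Without Control replicate 2 its difference was 0.95 (adjusted p = 0.202). Control replicate 2 was the lowest of the 4 arrays in 18 of the 30, against 30.5% of all genes, and the median was 0.08 in replicate 1, 0.33 in replicate 2 and 0.15 without Control replicate 2. In the ING1b and ING1bΔPHD backgrounds the list's median was 0.09 and 0.12, against -0.03 and 0.00 over all genes. PPP1R15A, also called GADD34, a phosphatase subunit that restores translation after stress, belonged to the unfolded protein list of 25, of which none passed. It passed only with the block, from 8.85 and 9.82 to 10.30 and 10.67 (adjusted p = 0.0176), in a list whose median was 0.03. Among 19 amino acid transporters SLC6A9, a glycine carrier, passed only with the block at -1.34 (adjusted p = 0.0459), and it too was highest in Control replicate 2, at 8.62 against 7.29. Without that array its difference was -0.67 (adjusted p = 0.375).

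**Figure D3:**
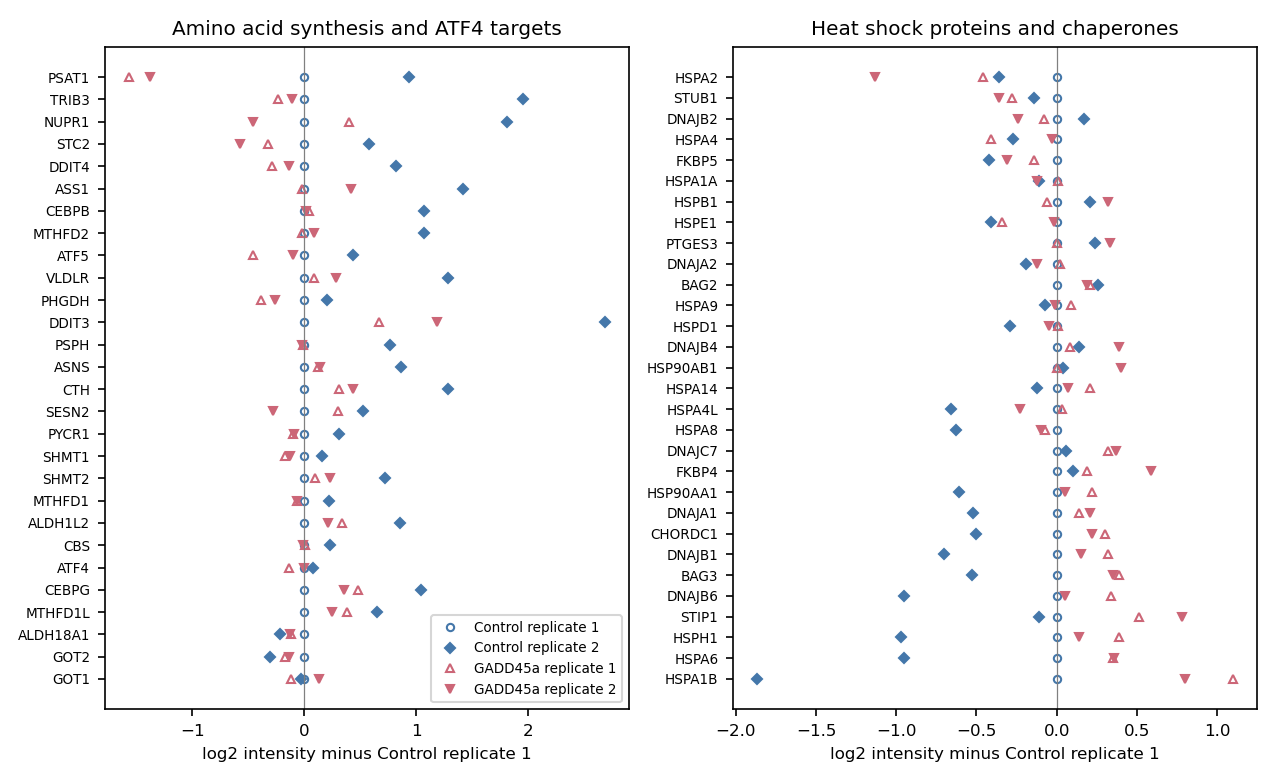
Members of the amino acid synthesis and ATF4 list (28 genes) and the heat shock list (30 genes) as log2 intensity minus Control replicate 1 (open circles). Filled diamonds are Control replicate 2 and red triangles the GADD45a arrays. Control replicate 2 lies highest of the 4 arrays in 25 of the 28 genes on the left and lowest in 18 of the 30 on the right.

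APOE, a lipid carrier, read 7.73 and 7.82 in control and 6.66 and 6.75 in GADD45a. The pairs did not overlap, and APOE fell 2.10-fold (SE 0.150, limma adjusted p = 0.0138). CYBA, the p22phox subunit of NADPH oxidases, fell 2.45-fold from 11.72 and 11.28 to 10.16 and 10.26 (limma adjusted p = 0.0249). CFD, complement factor D, fell 2.03-fold, SMOC1, a calcium-binding matrix protein, 2.27-fold, FLRT3, an adhesion protein, 2.28-fold, LYPD1, a LY6-family protein shown above for its promoter, 2.13-fold, and PAG1, an adaptor of lipid rafts, 2.29-fold. The probes used for KAZALD1, SSPN (sarcospan), KCNT2, a potassium channel, and PLEKHH2 were not detected in GADD45a and fell at least 2.09-fold, 1.20-fold, 1.56-fold and 1.26-fold. The other KCNT2 probe differed by 0.25. AP2A1, of the clathrin adaptor AP-2, fell at least 2.33-fold (adjusted p = 0.0233), and its other probe differed by -0.25. It alone passed among 38 Golgi and coat genes, with COPG2, a COPI subunit, at -0.77 (adjusted p = 0.0447) with the block. ARMCX2, LIAT1 and CRACDL fell at least 1.15-fold, 2.05-fold and 1.18-fold, and FAM50B, an imprinted gene, 1.99-fold.

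Further lists held no gene that passed without the block. Of 29 WNT, Notch and Hedgehog genes WNT5A, a ligand, passed only with it at -1.26 (adjusted p = 0.0345), from 8.25 and 8.55 to 7.12 and 7.18. Of 21 interferon genes ISG15 at -0.98 (adjusted p = 0.0254) and TAP1 at -0.77 (adjusted p = 0.0214) did so, as did IFIH1, an RNA sensor, which was detected on 1 of the 4 arrays. Of 42 nuclear transport genes IPO9 was lower at -1.06 (adjusted p = 0.0172) and NUP50 higher at 1.13 (adjusted p = 0.0274), again only with the block. The same held for GABARAPL1, of autophagy, at 0.98 (adjusted p = 0.00980) among 36 and for PSMC4, of the proteasome, at 0.96 (adjusted p = 0.0449) among 32. LGALS3BP among 15 galectin, annexin and S100 genes was the last of these, and it was not detected in GADD45a. No gene passed in either fit among 22 of TGF-beta and BMP signalling (median -0.12), 40 of RNA polymerase II (0.14), 40 of the spliceosome (0.06), 43 ribosomal proteins (-0.04), 42 translation factors (0.00) and 18 tRNA synthetases (-0.06).

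In all, 54 functional lists were read, with medians from -0.29 to 0.27, and 18 held a gene that passed. They covered 1487 tested genes, of which 6 rose and 13 fell, or 1.28%, against 0.658% of all genes tested. The lists were chosen with earlier results of these data known, so nothing is read from the gap between these shares. The other 51 of the 70 genes belonged to none of the lists.

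**Figure D4:**
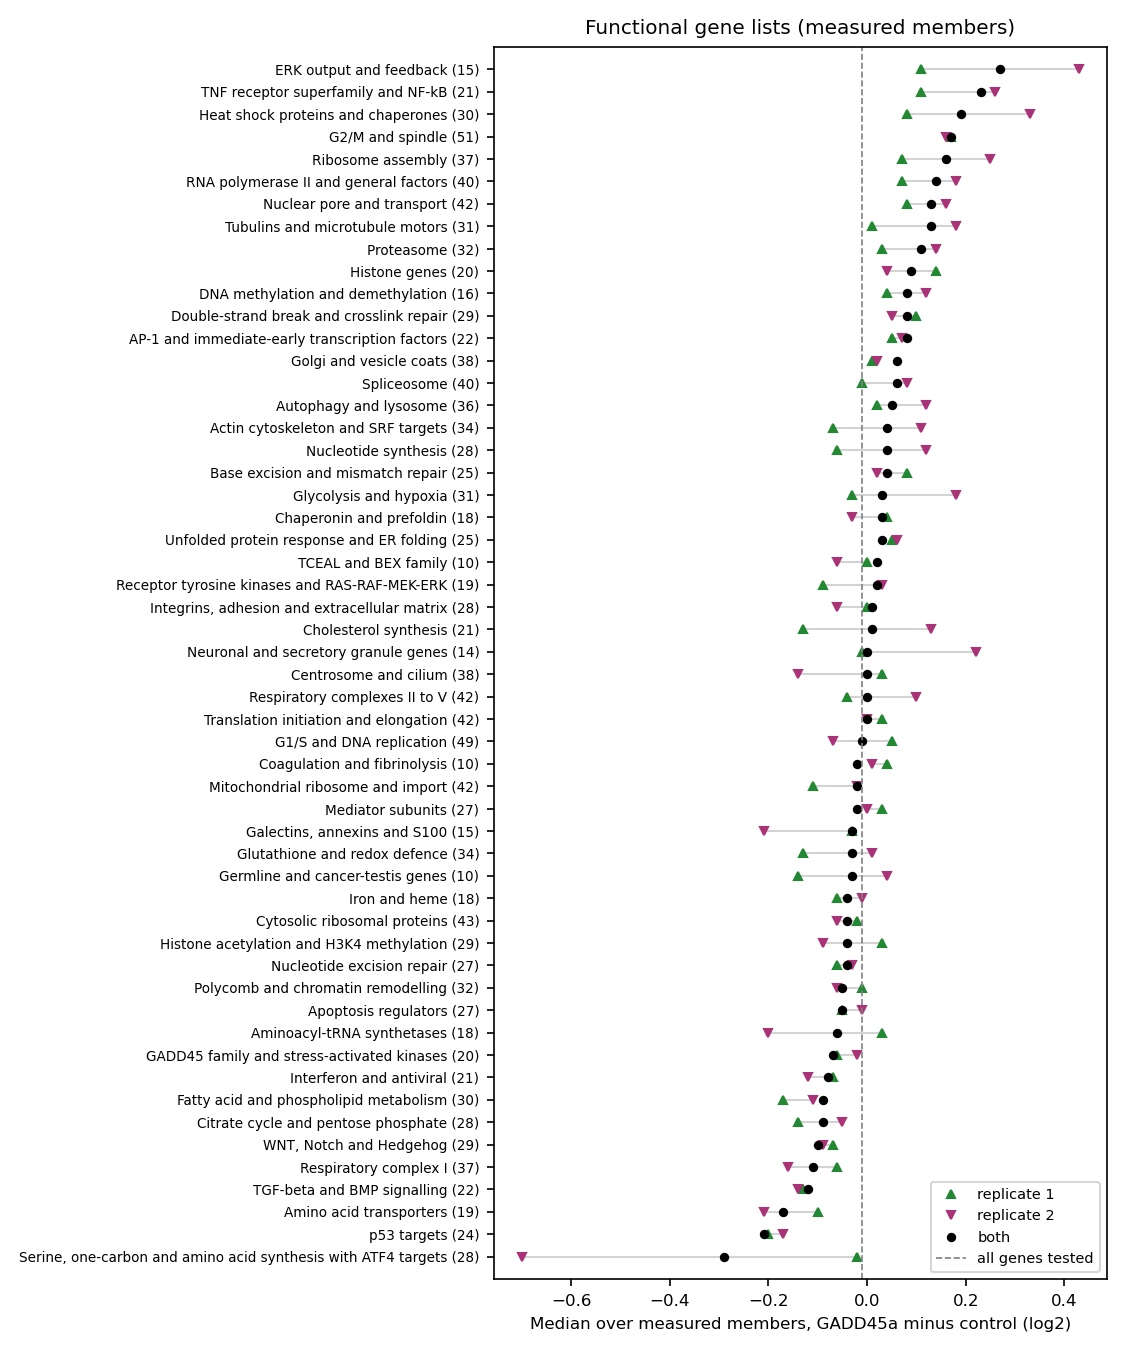
Median log2 difference, GADD45a minus control, over the measured members (number in brackets) of each of 54 gene lists, for both replicates (black) and within each replicate number (triangles), with the median of all genes as a dashed line. Most medians lie near that line at -0.01, the amino acid and ATF4 list lies lowest at -0.29 and its replicates lie apart at -0.02 and -0.70.

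Cells that received GADD45a with ING1b or with ING1bΔPHD, and the matching cells without GADD45a, gave the same addition on other arrays. These enter neither group of the comparison with empty vector, though they share its estimate of the spread and its normalization. With ING1b 38 genes passed (0.357%), 0.0939% higher and 0.263% lower, and 64 with the block (0.601%). With ING1bΔPHD 10 passed (0.0939%), 0.0282% higher and 0.0658% lower, and 17 with the block (0.160%). Of the 50 genes that fell against empty vector, all 50 were lower with GADD45a in the ING1b background, where 14 passed, and 49 were lower in the ING1bΔPHD background, where 7 passed. Over all genes 55.9% and 50.6% were lower. The medians of the 50 were -0.81 and -0.68, against -1.19 in the arrays that chose them and -0.03 and 0.00 over all genes. ARMCX2 was the exception, at 0.05 in the ING1bΔPHD background, where its probe was not detected. The probes used for CRACDL, KCNT2 and SSPN were likewise not detected in either background, so the signs of these genes there carry no size.

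The genes that passed in both of the other backgrounds included INF2, at -1.74 and -1.31 (limma adjusted p = 0.00111 and 0.0132), and SAC3D1, at -1.96 and -1.56 (adjusted p = 4.98e-04 and 0.00948). NDUFA13 fell by 2.19 and by 1.84 on the log2 scale, and MED29 passed in both (adjusted p = 0.00194 and 0.0234). TBCB fell by 1.43 and by 1.47, and UCK1 passed in both (adjusted p = 0.00546 and 0.0198). TPX2 fell by 1.59 and by 1.68, against 1.18 without ING1b. XPC fell by 1.13 with ING1b (adjusted p = 0.0170) and was -1.03 with ING1bΔPHD (adjusted p = 0.0739, or 0.0409 with the block). PSAT1 did not pass in either, at -1.37 (adjusted p = 0.0598) and -1.09 (adjusted p = 0.277), nor did ACTA2, at -0.88 and -0.97. With the block PSAT1 and ACTA2 passed with ING1b (limma adjusted p = 0.0309 and 0.0468) but not with ING1bΔPHD. IFT172, MRPL54 and ABHD14A passed in both backgrounds only with the block.

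Of the 20 genes that rose against empty vector, 17 were higher in the ING1b background, where GGTLC1 alone passed, and 18 in the ING1bΔPHD background, where GGTLC1 and ETV5 passed. Over all genes 44.1% and 49.4% were higher. The medians of the 20 were 0.49 and 0.54, against 1.20 in the arrays that chose them. JUN stood at 0.50 and 0.64 (limma adjusted p = 0.535 and 0.493), TNFRSF12A at 0.61 and 0.86 (adjusted p = 0.491 and 0.353) and TFPI at 0.52 and 0.67, and none of them passed. RB1-DT was at -0.73 and -0.33, ITGA7 at -0.39 with ING1bΔPHD, and STX11 and TES at -0.03 and -0.38 with ING1b. The probes used for ITGA7 and STX11 were not detected in either of these backgrounds, so their values there are no measure of size. A difference between the backgrounds was tested itself, as an interaction in limma, and no gene passed for either of the ING1b forms, with 442 and 485 genes at an unadjusted p under 0.05 (4.15% and 4.56%). With the block 2 genes (0.0188%) and none passed. No change is therefore shown to be particular to GADD45a alone.

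**Figure D5:**
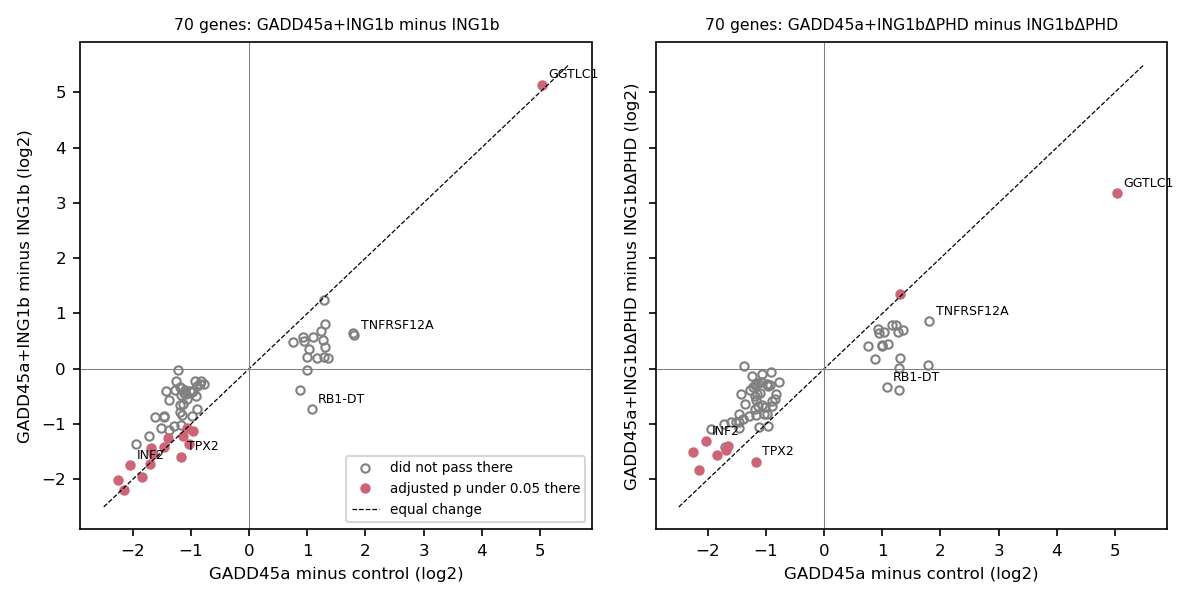
The 70 genes that passed against empty vector (x axis, log2 difference) set against the GADD45a difference in ING1b cells (left) and ING1bΔPHD cells (right). Filled points passed there too, and the dashed line marks equal change. All 50 genes that fell lie below 0 on the left and 49 of them on the right, with most points nearer to 0 than the line.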

How the data were processed

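RNA of 12 HEK293T samples, 2 per group, was, per the labels, hybridised to Illumina bead arrays. The deposited intensity table holds the average bead intensity per probe and array, not normalized, beside a detection p-value, and a second table deposited by the authors holds normalized intensity values with negatives. GenomeStudio 2011.1 is named per the submitters' processing notes, while its options stand in no source used here.

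Intensities were background-corrected from the detection p-values (nec, limma 3.58.1 in R 4.3.3, offset 16), quantile-normalized and logged. Probes detected (p under 0.01) on at least 2 arrays were kept, 17814 of 47323, and the brightest probe stood for each gene. Symbols came from the platform annotation. Of the probes 30113 had 1 symbol, 8 several and 17202 none, and 30074 matched RefSeq. One limma fit with a mean per group over 12 arrays left 6 residual degrees of freedom, with Benjamini-Hochberg adjustment over 10645 genes. The procedure was tested on simulated data. Replicate differences correlated between groups at 0.246 to 0.477 over 15 pairs of groups (0.332 for Control and GADD45a), so part of the replicate difference was shared. The labels name no shared batch, and "rose" and "fell" follow the fit without the block. In the comparison with empty vector, the block is shown for named genes where it changes a call.

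The members, the 58 gene lists and the tests were chosen with earlier results of these data known. Every gene that passed could be named. From each list up to 3 members that passed only with the block were named, by smallest p, and in lists with none up to 2 of smallest p. TRIB3, DDIT3 and the JUN variant motif were chosen after their values or sequence had been seen. FOS, the lowest of its list, was also named outside this rule. Of the 58 lists 4 hold markers of HEK293 and of blood, fibroblast and muscle, and hepatocyte and gut cells, and of these no gene passed in either fit. The alternatives were other background, scaling, probe, filter and variance settings, the authors' values, the block, and leaving out each array.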

Additional observations from a re-analysis of the deposited data

Results flagged for a closer look

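Of 3908 detected probes without a gene symbol, which the gene comparisons left out, 16 passed at a limma adjusted p under 0.05 when all probes were tested together, 8 higher and 8 lower in GADD45a. The lowest adjusted p among them was 0.0135, for ILMN_1699253 at -1.41, and these probes could not be named here.

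With the replicate block, the GADD45a difference itself differed between the ING1b and the empty vector backgrounds for 2 genes, IQCN by 1.89 and MYBPHL by -2.04 on the log2 scale (limma adjusted p = 0.0409 for both). Neither gene was detected in the control or GADD45a arrays, where they differed by -0.04 and -0.28, so no fold is given. Without the block both had an adjusted p of 0.0803.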

How the results depend on the processing

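The 70 genes of GADD45a minus control became 130 with no background correction (50 higher, 80 lower), 434 under median scaling, 116 with trended robust variances (45 higher, 71 lower), 40 with array weights, 391 with the replicate block, 1 with only the groups compared and 16 at an adjusted p under 0.01. Leaving out single arrays gave 5 to 147, and without either ING1b array 31. With ING1b the 38 genes became 58 under median scaling, 20 with detection on all 4 compared arrays, 64 with the block, 3 with only the groups compared and 15 at 0.01, and 9 to 38 without single arrays. With ING1bΔPHD the 10 became 6 with detection on all 4 compared arrays, 17 with the block, 0 with only the groups compared and 1 at 0.01, and 0 to 12 without single arrays. The interaction with ING1b gave 2 genes on the authors' values and 2 with the block, that with ING1bΔPHD 1 on the authors' values, and each 0 to 1 without single arrays. The causes were not tested. None of the 70 genes that passed changed direction under an alternative. Of 1868 values of the 70 genes under alternatives, 1215 stayed past the threshold and 653 did not. GGTLC1 alone passed in each of its 26, and it, INF2, SAC3D1, MED29 and NDUFA13 passed without each of the 4 compared arrays in turn. With 2 arrays per group and probes near the floor, sizes of dim genes are bounds, and genes that did not pass are not shown to be equal.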

Other observations

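Small nucleolar RNAs, which guide chemical modification of ribosomal and spliceosomal RNA, were a class that the lists did not hold, picked after their values had been seen. Of 95 measured, 8 were higher in GADD45a with the replicate block and none was lower, and none passed without it. Over all genes tested 1.37% were higher and 2.30% lower with the block. SNORA41 read 6.30 and 6.23 in control and 7.28 and 6.99 in GADD45a (log2 0.87, SE 0.170, limma adjusted p = 0.0575, or 0.0269 with the block). SNORD89 stood at 0.77 and SNORD17 at 1.03, with adjusted p of 0.0201 and 0.0279 with the block. In 4 of the genes that passed only with the block the arrays of the groups overlapped.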
